A study of Homo sapiens with 4 samples.

Results

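The resting transcriptome described here is that of BICR10 cells carrying a control hairpin. BICR10 is an established human cell line of oral squamous cell carcinoma, which the labels put under head and neck cancer. The members are the 2 shControl libraries of a series of 4, and every gene of their count tables was taken. The cells of both libraries had been transduced with lentivirus bearing the control shRNA plasmid and selected with puromycin, so that the integrated vector and the selection are shared by both. The other 2 libraries of the series carry a hairpin against YEATS2, and they were not used. The cells were a transduced population and not a picked clone as far as the sources used here tell. The study's methods describe its experiments in general as independent biological replicates, but the labels do not say whether shControl 1 and shControl 2 came from separate cultures, so part of the spread between them may be technical.

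The oral mucosa is a stratified squamous epithelium. Its basal cells are held together by desmosomes and by E-cadherin, are tied to the basement membrane by hemidesmosomes, make the keratin pair KRT5 and KRT14, and are specified by the transcription factor TP63. Above them keratinocytes switch to other keratin pairs and to the precursors of the cornified envelope. In epithelial-to-mesenchymal transition (EMT), cells lose E-cadherin and the epithelial splicing and polarity programme, and gain vimentin, N-cadherin and a collagen-rich matrix, under transcription factors of the SNAIL, ZEB and TWIST families. The miR-200 family is known to oppose the ZEB factors.

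Poly(A) RNA was sequenced, and the tables held 47297970 reads assigned to genes in shControl 1 and 39824898 in shControl 2. Counts scaled to 1000000 reads on genes (CPM) were used to say whether a gene was detected, defined as 1 CPM or more in both libraries, which is about 47.3 and 39.8 reads. Levels of different genes were compared only as TPM, in which the count is divided by the length of the gene's exons and scaled so that all genes sum to 1000000. A gene listed at 0 could still lie at up to 0.0634 and 0.0753 CPM, the level of 3 reads in each library. These limits cover counting error only, and the reads carried no molecular identifiers. Of 60623 genes, 13167 were detected (21.7%), and 29422 had no read in either library. Among the 19873 protein-coding genes of the nuclear genome, 11512 were detected (57.9%) and 3724 had no read. The share of 57.9% is the background against which the counts of gene lists below are set. Reads of the mitochondrial genome made up 11.3% and 11.6% of the counts.

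The label was first checked against markers of squamous epithelium. Of 13 markers (TP63, KRT5, KRT14, KRT6A, KRT16, KRT17, DSG3, DSC3, PKP1, CDH1, EPCAM, SFN and TRIM29), 9 were detected, and the 13 together summed to 229 CPM in each library. TP63, the master regulator of squamous epithelia (ENSG00000073282, chr3:189631389-189897276, plus strand of GRCh38), was nearly silent with 3 and 0 counts. CDH1, which encodes E-cadherin (ENSG00000039068, chr16:68737292-68835537, plus strand), had 16 and 12 counts, or 0.174 and 0.157 TPM. KRT17 and EPCAM were the other markers not detected, at 0.265 and 0.398 TPM and 1.52 and 0.982 TPM. The markers that were abundant were SFN, the keratinocyte 14-3-3 protein, at 297 and 299 TPM, and KRT6A, a keratin of activated keratinocytes, at 56.3 and 59.8 TPM. KRT5 was found at 11.9 and 10.9 TPM, whereas its partner KRT14 was at 1.64 and 1.59 TPM. EPCAM differed most between the libraries among the markers named here with a mean above 1 TPM. The data thus held a part of the squamous marker set and lacked the factor and the cadherin that define it, and the cells are called BICR10 shControl cells here rather than by a cell type.

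Markers of other cell types were read in the same way. All 8 fibroblast markers were detected, summing to 4559 and 4429 CPM, with COL1A1 at 946 and 917 TPM, LUM at 496 and 527 TPM, COL3A1 at 462 and 457 TPM, DPT at 118 and 105 TPM and DCN at 73.2 and 75.9 TPM. PDGFRA, a receptor commonly used for fibroblasts, was the lowest of them at 0.941 and 0.775 TPM. The leukocyte and myeloid lists were low, with 1 detected member each. The 8 leukocyte markers summed to 3.45 and 3.44 CPM with CD3D, CD3E, CD2 and NKG7 at 0 and the pan-leukocyte gene PTPRC at 0.0211 and 0.126 CPM. The 8 myeloid markers summed to 2.73 and 2.44 CPM with CD68, FCGR3A and TYROBP at 0. The 8 endothelial markers summed to 42.6 and 43.3 CPM, of which KDR gave 32.4 and 33.3 CPM and CLDN5 none. Neural and glial markers summed to 87.1 and 86.8 CPM, most of it from MAP2 at 68.9 and 67.6 CPM, and 4 of 6 were detected. All 7 salivary and mucous gland markers were at 0, and the erythroid, melanocyte, muscle and adipocyte lists had no detected member. The high fibroblast markers are also matrix genes that appear among the mesenchymal markers below, and whether cells of another type contributed to them was not tested.

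Transcripts of the mitochondrial genome were the most abundant, with MT-CO2, a subunit of cytochrome c oxidase, at 68646 and 71128 TPM. Among the protein-coding genes of the nucleus FTL, the ferritin light chain, ranked 1st in TPM at 23370.0 ± 138 TPM (mean ± SD, n = 2, here and below). The ferritin heavy chain FTH1 followed at 10461 ± 221 TPM. This order rests on the division by exonic length, 871 bases for FTL and 2004 for FTH1. In mean CPM FTH1 was above FTL, at 6664 and 6470, and the elongation factor EEF1A1 was above both at 8015. For FTH1, 63.2% of the exonic bases overlap exons of other genes on either strand. TMSB10, an actin-sequestering thymosin, was at 9737 ± 702 TPM, GAPDH at 6329 ± 12 TPM and beta-actin ACTB at 3615 ± 145 TPM. The 25 highest genes also held the calcium-binding protein S100A6 at 3421 ± 629.6 TPM, the metallothionein MT2A at 3209 ± 268 TPM, the elongation factors EEF1A1 at 2506 ± 91 TPM and EEF2 at 2139.8 ± 28 TPM, and 7 genes of the cytosolic ribosome. RPS2 was the highest of the ribosomal proteins at 2407 ± 141 TPM, and RPL35, RPL41, RPS27, RPS12 and RPL7A lay between 1610.0 and 1936 TPM.

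The same list of 25 held genes of redox defence and glycolysis. TXN, which encodes thioredoxin, was found at 3264 ± 31 TPM, and the quinone reductase NQO1 at 2269 ± 5.7 TPM. LDHA was at 2151 ± 41 TPM, ENO1 at 1749 ± 35 TPM and the complex I subunit NDUFA1 at 2874 ± 414 TPM. Other members were HSPB1, a small heat shock protein, at 1692 ± 45 TPM, and LGALS1 (galectin-1) at 1733 ± 78 TPM. TGFBI, a secreted matrix protein induced by TGF-beta (chr5:136028988-136063818, plus strand), ranked 24th at 1668 ± 36 TPM. The 25 genes together took 6.21% and 6.09% of the counts, and the 1000 highest genes of each library took 57.1% and 57.0%. Among the nuclear protein-coding genes, 7420 had a mean of 10 TPM or more, 1105 of 100 or more and 56 of 1000 or more.

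**Figure D1:**
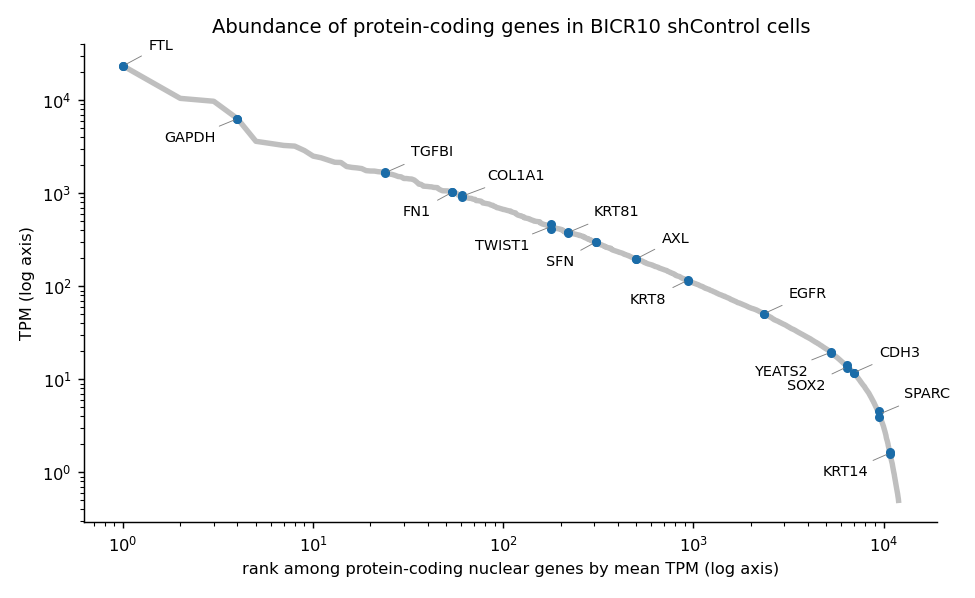
Level of each protein-coding nuclear gene (TPM, log axis) against its rank by mean TPM (log axis) in the BICR10 shControl libraries. The grey line is the mean of both libraries down to 0.5 TPM, and the points are the 2 libraries of 16 labelled genes, from FTL near 23370.0 TPM at rank 1 to KRT14 near 1.61 TPM at rank 10819.

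Lists of 38 epithelial and 50 mesenchymal markers were set side by side. Both lists were chosen with earlier results of these data known. The values below therefore describe these lists and are no test of the state of the cells. Of the epithelial markers 14 were detected (36.8%) and 5 had no read, whereas 44 of the mesenchymal markers were detected (88.0%) and none was without reads. The median epithelial marker was at 0.420 TPM in shControl 1 and 0.389 TPM in shControl 2, and the median mesenchymal marker at 86.2 and 89.8 TPM. On the log2(TPM + 0.1) scale the epithelial median lay below the mesenchymal one by 7.36 in shControl 1 and by 7.52 in shControl 2, a mean difference of -7.44 ± 0.11 (SD, n = 2). The difference is between lists of genes within each library. Its SD is the spread between the libraries and does not measure the spread among genes or the choice of list members. The lists differ in kind. The epithelial one holds 14 regulators with a median of 0.0240 TPM, beside junction and surface genes with medians of 1.26 and 1.25 TPM. The mesenchymal one has no group of regulators and holds 22 matrix genes with a median of 273 TPM. Its other groups had medians from 9.08 to 120 TPM. The part of this make-up in the difference was not tested. In each library 22 of the 50 mesenchymal markers were higher in TPM than the highest epithelial marker.

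Of the 11 epithelial surface proteins 6 were detected (54.5%). Among the 11, 1 had a mean of 130.8 TPM, the highest of all 38 epithelial markers, and the others were under 10 TPM. Of these others MUC1, a transmembrane mucin, was at 8.79 ± 0.027 TPM, and the hemidesmosomal integrin chains ITGB4 and ITGA6 were at 7.18 ± 0.070 TPM and 5.91 ± 0.47 TPM. EPCAM was at 1.25 ± 0.38 TPM, and the protease inhibitor SPINT2 and the protease ST14 at 0.243 and 0.198 TPM. Among the junction genes TJP1, the tight junction scaffold, was at 35.4 ± 1.3 TPM and the placental cadherin CDH3 at 11.8 ± 0.094 TPM, while occludin (OCLN) was at 0.00707 TPM. The regulators of the epithelial programme were the lowest group. GRHL2, OVOL2, ELF3 and RAB25 had no read in either library. The epithelial splicing factors ESRP1 and ESRP2 were at 0.00677 and 0.102 TPM.

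Among the mesenchymal markers vimentin (VIM, chr10:17228241-17237593, plus strand) was at 911 ± 19 TPM, fibronectin FN1 at 1027 ± 8.2 TPM and the thrombospondin THBS1 at 1324 ± 21 TPM. N-cadherin, encoded by CDH2, was at 27.96 and 31.1 TPM, and the ratio of CDH2 to CDH1 in TPM was 161 in shControl 1 and 198 in shControl 2. CD44, the hyaluronan receptor, was at 169 ± 2.4 TPM. Of the contractile genes MYL9 and CALD1 were found at 193 ± 9.5 TPM and 128 ± 2.2 TPM, but smooth muscle actin ACTA2 was at 1.04 ± 0.090 TPM and CNN1 at 0.0561 TPM. The 6 mesenchymal markers that were not detected were THBS2, FBN2, NES, THY1, CNN1 and LMOD1, at 0.332, 0.1099, 0.251, 0.0795, 0.0561 and 0.0489 TPM. SPARC was detected at 4.51 and 3.91 TPM, which placed it at rank 9472 of the protein-coding genes and below 39 of the 50 mesenchymal markers.

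**Figure D2:**
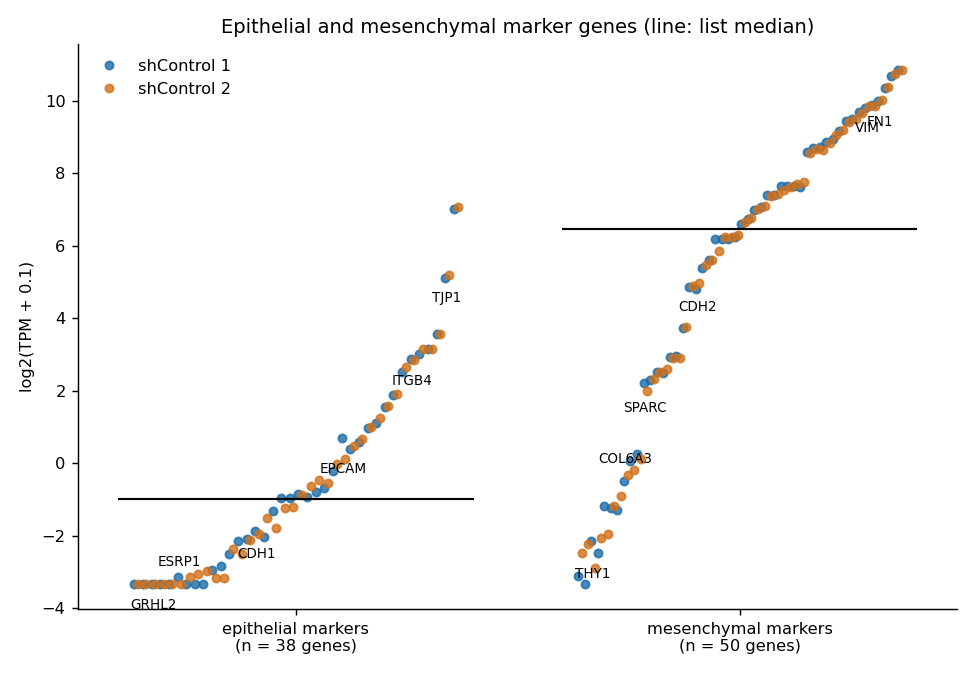
Level of each of 38 epithelial and 50 mesenchymal markers on the log2(TPM + 0.1) scale, with genes ordered by level within each list, shControl 1 in blue and shControl 2 in orange. The horizontal lines are the list medians, which are apart by -7.44 (epithelial minus mesenchymal) on this scale, and 22 of the 50 mesenchymal markers lie above the highest epithelial one in each library.

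Transcription factors that drive EMT were mostly present, as 15 of 18 were detected (83.3%). TWIST1 (chr7:19020991-19117636, minus strand) was the highest at 413 and 467 TPM, and it ranked 179th of the protein-coding genes. SNAI2 followed at 150.2 and 155 TPM. PRRX1, a homeobox factor of mesenchyme, was at 29.9 ± 0.27 TPM, TWIST2 at 28.05 ± 2.1 TPM, FOXC2 at 26.04 ± 0.25 TPM and ZEB1 at 24.1 ± 0.0053 TPM. ZEB2 was lower, at 9.56 ± 0.062 TPM, and SNAI1 lower again, at 4.96 ± 0.44 TPM. SNAI3 was at 0.0229 TPM, and GSC and TBXT had no read. The order TWIST1, SNAI2 and then the group from PRRX1 to ZEB1 held in both libraries, whereas TWIST2, FOXC2 and ZEB1 lay between 24.1 and 28.05 TPM and are not ordered further.

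Genes that carry microRNAs gave a related view. The libraries hold poly(A) RNA and do not measure mature microRNAs, so only the host transcripts are described, and hosts other than MIR200CHG, MIR205HG, MIR22HG, MIR31HG and MIR155HG were chosen after their values had been seen. MIR200CHG, the host of miR-200c and miR-141 on chromosome 12, and MIR205HG, the host of the squamous miR-205 on chromosome 1, had no read in either library. The hosts of 6 further microRNAs had reads, from 2.41 and 2.29 CPM for MIR155HG to 33.7 and 33.3 CPM for MIR23AHG. MIR22HG was at 25.5 and 26.1 CPM, MIR193BHG at 32.6 and 28.9 CPM, MIR31HG at 10.6 and 10.998 CPM and MIR100HG at 10.97 and 14.2 CPM. In all, 25 of 85 host transcripts named in this way were detected (29.4%) and 27 had no read, and for comparison 6.51% of all long noncoding RNAs were detected. Each microRNA shown lies within its host on the same strand. The mature sequences, from RefSeq on GRCh38.p14, are given first for the hosts without reads and then for the hosts with reads, with the seed (bases 2 to 8) in capitals. No seed is shared among these 9.
hsa-miR-200c-3p (host MIR200CHG, no read): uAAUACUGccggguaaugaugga
hsa-miR-141-3p (host MIR200CHG, no read): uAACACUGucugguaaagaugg
hsa-miR-205-5p (host MIR205HG, no read): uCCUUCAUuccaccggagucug
hsa-miR-22-3p (host MIR22HG): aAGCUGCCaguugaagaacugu
hsa-miR-31-5p (host MIR31HG): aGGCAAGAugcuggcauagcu
hsa-miR-193b-3p (host MIR193BHG): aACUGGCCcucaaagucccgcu
hsa-miR-27a-3p (host MIR23AHG): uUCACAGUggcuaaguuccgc
hsa-miR-100-5p (host MIR100HG): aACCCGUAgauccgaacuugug
hsa-miR-155-5p (host MIR155HG): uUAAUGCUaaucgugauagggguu

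Keratins form filaments from pairs of a type I and a type II chain, and 13 of the 55 keratin genes were detected (23.6%) while 22 had no read. The highest was KRT81, a type II keratin of the hair cortex (chr12:52285913-52291534, minus strand), at 383 and 376 TPM. None of its usual type I partners was near this level, with KRT34 at 2.101 and 1.31 TPM and KRT31 at 1 read in all. The simple epithelial pair was near equal in TPM, with KRT8 at 117 and 115 TPM and KRT18 at 107 and 109 TPM. The KRT8 to KRT18 ratio was 1.07 ± 0.02 on this scale (SD, n = 2). This near equality rests on the division by exonic length, and other lengths were not tried for the keratin pairs. In CPM the 2 simple type II keratins, the lower of them at 5.21 TPM, summed to 264 and 257. The simple type I keratins summed to 106 and 105 CPM. In the basal pair KRT5 exceeded KRT14 by 7.05 ± 0.29-fold in TPM (SD, n = 2). KRT6A exceeded KRT16, its partner in activated keratinocytes, by 9.30 ± 0.76-fold in TPM (SD, n = 2). KRT10, the type I keratin of suprabasal epidermis, was found at 117 and 101 TPM although its type II partner KRT1 had no read. The mucosal pair KRT4 and KRT13 and the simple keratin KRT19 had no read either. KRT6A, KRT6B and KRT6C are close copies, so that the split among them at 58.04, 2.702 and 0.0703 TPM is uncertain, and KRT81 and KRT86 are close copies too.

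**Figure D3:**
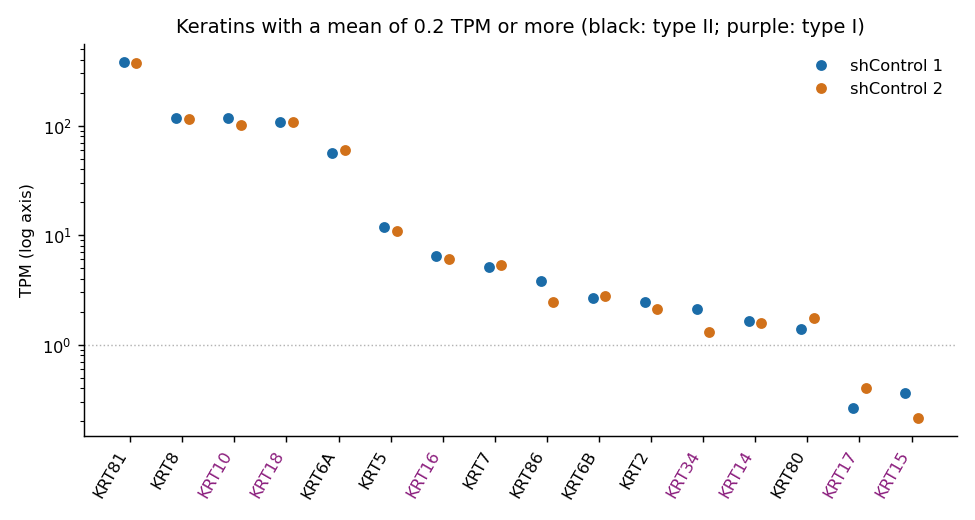
Level (TPM, log axis) of the 16 keratins with a mean of 0.2 TPM or more in shControl 1 (blue) and shControl 2 (orange), type II names in black and type I names in purple, with a dotted line at 1 TPM. KRT81, KRT8, KRT10 and KRT18 exceed 100 TPM in both libraries, and KRT17 and KRT15 fall under 1 TPM.

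Lineage factors of squamous epithelium were detected in 24 of 36 cases (66.7%), not far from the background of 57.9%. The near absence of TP63 was not shared by every member. Detected members included TBX3 at 46.6 ± 1.5 TPM, KLF5 at 35.7 ± 0.20 TPM, PITX1 at 29.05 ± 2.2 TPM and BNC1 at 28.1 ± 2.3 TPM. Others were DLX3 at 25.01 ± 0.35 TPM, TFAP2A at 15.1 ± 0.56 TPM, SOX2 at 13.7 ± 0.77 TPM and PAX9, a factor of the oral and pharyngeal endoderm, at 10.6 ± 1.6 TPM. TP73, the relative of TP63, was at 3.89 ± 0.026 TPM. Of 16 factors of keratinocyte differentiation 8 were detected and 3 had a mean of 10 TPM or more. The highest of these 3 had a mean of 119 TPM, above every other member of the 36. KLF4 was at 16.3 ± 0.22 TPM, and ZNF750, ELF3 and NKX2-3 had no read. Factors of other lineages were detected in 8 of 31 cases (25.8%) and 14 had no read. Among the highest of them were NKX2-5 at 11.2 ± 0.10 TPM, GATA6 at 5.97 ± 0.45 TPM, GATA2 at 4.82 ± 0.022 TPM, MITF at 4.402 ± 0.14 TPM and NKX2-1 at 3.19 ± 0.50 TPM. Regulators of hepatic and intestinal cells (HNF4A, CDX1 and CDX2) and of skeletal muscle (MYOD1 and MYF5) had no read.

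Genes of squamous differentiation were largely silent. Of 57 listed, 7 were detected (12.3%) and 25 had no read. The protease inhibitor CSTA (cystatin A) was the highest at 84.1 ± 6.2 TPM, followed by the matrix protein ECM1 at 36.7 ± 1.0 TPM, the serpin SERPINB5 at 26.2 ± 1.1 TPM, the envelope precursor IVL (involucrin) at 17.4 ± 0.73 TPM and periplakin PPL at 12.9 ± 0.0020 TPM. ELOVL4, an enzyme of very long chain fatty acids, was at 7.31 ± 0.23 TPM and the crosslinking enzyme TGM2 at 1.93 ± 0.14 TPM. CNFN, SLPI and TCHH lay just outside the limit of detection at 1.08 and 0.904 CPM, 1.52 and 0.728 CPM and 0.909 and 0.979 CPM, and TGM2 and ELOVL4 were the lowest members inside it at 5.18 and 4.595 CPM and 6.89 and 7.11 CPM. The envelope proteins SPRR1A, SPRR1B, SPRR2A, CRNN and LORICRIN had no read, and neither did SERPINB3, SERPINB4 and KLK7.

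Promoter sequences of these genes were looked at because IVL and the SPRR genes lie in the same cluster on chromosome 1 and were found in opposite states. RefSeq sequences (GRCh38.p14) of the 250 bases before the start were matched by symbol for 46 of the 57 genes. The median number of CG pairs in them was 2, against 17 over the 15324 nuclear protein-coding genes with such a sequence, and the letters TATAAA were found on either strand in 18 of the 46 (39.1%), against 9.22% of all. The detected members with a sequence were ECM1, SERPINB5, IVL and ELOVL4, which held 1, 13, 0 and 30 CG pairs. The sequences of IVL, which was detected, and of SPRR3 and SPRR1B, which had 1 read and none, are shown for comparison with that of the abundant TGFBI. CG pairs and TATAAA are in capitals, and a match is only a description of the letters. All lie on the plus strand.
IVL, chr1:152908296-152908545: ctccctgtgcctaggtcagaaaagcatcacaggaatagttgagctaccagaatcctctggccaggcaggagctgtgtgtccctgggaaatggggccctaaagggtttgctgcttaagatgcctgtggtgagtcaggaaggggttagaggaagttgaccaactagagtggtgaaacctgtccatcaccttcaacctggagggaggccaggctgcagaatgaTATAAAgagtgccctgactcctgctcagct
SPRR3, chr1:153001499-153001748: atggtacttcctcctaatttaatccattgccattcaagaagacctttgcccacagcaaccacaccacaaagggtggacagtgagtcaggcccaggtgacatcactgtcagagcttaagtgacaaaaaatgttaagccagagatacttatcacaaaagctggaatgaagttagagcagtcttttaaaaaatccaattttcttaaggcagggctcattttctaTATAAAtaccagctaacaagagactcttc
SPRR1B, chr1:153030953-153031202: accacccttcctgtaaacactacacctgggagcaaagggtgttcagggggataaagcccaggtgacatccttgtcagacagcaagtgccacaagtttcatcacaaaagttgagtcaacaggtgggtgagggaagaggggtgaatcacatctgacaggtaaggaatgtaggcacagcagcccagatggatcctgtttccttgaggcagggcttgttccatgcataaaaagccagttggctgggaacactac
TGFBI, chr5:136028738-136028987: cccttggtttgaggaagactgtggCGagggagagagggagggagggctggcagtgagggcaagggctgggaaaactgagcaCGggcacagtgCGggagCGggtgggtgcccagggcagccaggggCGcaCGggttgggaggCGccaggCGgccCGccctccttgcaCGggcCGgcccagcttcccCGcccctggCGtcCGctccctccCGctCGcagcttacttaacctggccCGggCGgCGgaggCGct
IVL, SPRR3 and SPRR1B held no CG pair and TGFBI held 20. TATAAA began 30 bases before the start in IVL and 29 bases before it in SPRR3, and neither SPRR1B nor TGFBI held these letters on the strand shown. IVL and SPRR3 were thus alike in both features, whereas SPRR1B, which had no read, differed from IVL in TATAAA. The median number of CG pairs was 7 in the 4 detected genes and 2 in the 42 that were not detected. TATAAA was found in 2 of the 4 and in 16 of the 42. Whether these features bear on the levels was not tested.

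Genes of cell junctions were detected in 36 of 77 cases (46.8%). Of the 9 listed cadherins outside the desmosome CDH2 was the highest. It was followed by CDH13 at 18.4 ± 0.16 TPM, CDH3 at 11.8 ± 0.094 TPM, CDH11 at 7.56 ± 0.19 TPM and CDH4 at 3.06 ± 0.022 TPM. The catenins that link cadherins to actin were abundant, with CTNNA1 at 139.5 ± 2.4 TPM and CTNNB1 at 122 ± 1.8 TPM. Among the desmosomal genes PERP was at 80.4 ± 9.3 TPM and the cadherin DSG2 at 34.5 ± 0.61 TPM, whereas desmoplakin DSP was at 1.26 ± 0.057 TPM and the epidermal desmosomal cadherins DSG1 and DSC1 at 0.00446 and 0 TPM. Of the 24 claudins 3 were detected, CLDN12 at 15.6 ± 0.51 TPM, CLDN15 at 10.1 ± 0.072 TPM and CLDN23 at 2.54 ± 0.050 TPM, and 10 had no read. The epithelial claudins CLDN1, CLDN4 and CLDN7 were at 0.56, 0.482 and 0.449 TPM. For gap junctions GJA1 (connexin 43) was at 60.8 ± 0.81 TPM, and GJB2 and GJB6 of stratified epithelia were at 0.281 and 0.0202 TPM. For hemidesmosomes, plectin PLEC and the tetraspanin CD151 were at 163 ± 4.4 TPM and 159 ± 3.4 TPM, and COL17A1, the transmembrane collagen of the structure, was at 0.202 TPM.

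Genes of the extracellular matrix followed no single level. Of 44 collagen genes 24 were detected (54.5%), which is near the background of 57.9%, and 9 had a mean of 100 TPM or more. Collagen I was the most abundant, with COL1A1 (chr17:50184101-50201632, minus strand) at 946 and 917 TPM and COL1A2 at 727 and 725 TPM, a ratio of 1.28 ± 0.03 in TPM (SD, n = 2). The fibrillar collagens COL5A2, COL3A1 and COL5A1 were at 579 ± 2.9 TPM, 459 ± 4.1 TPM and 379 ± 7.3 TPM. For collagen VI, a trimer of different chains, COL6A2 was at 697 and 676 TPM and COL6A1 at 420.2 and 402 TPM, but COL6A3 was at 0.614 and 0.699 TPM, so that COL6A1 exceeded it 685-fold and 575-fold. The chains COL4A1 and COL4A2 of basement membrane, which are transcribed from a shared promoter region, were at 61.1 ± 1.4 TPM and 60.5 ± 1.3 TPM, a ratio of 1.01 in both libraries. Enzymes that modify and crosslink collagen were detected in 17 of 18 cases (94.4%), among them P4HB at 384 ± 0.012 TPM, P4HA1 at 189 ± 8.2 TPM, PLOD2 at 189 ± 8.0 TPM and LOXL2 at 167 ± 0.83 TPM, and LOXL4 was the one not detected.

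Laminins and their linkers were detected in 13 of 16 cases (81.2%). LAMC1 was the highest at 261 ± 6.0 TPM, before LAMB2 at 78.4 ± 0.86 TPM and LAMB1 at 50.9 ± 0.84 TPM. Of laminin-332, the laminin of squamous basement membrane, the chain LAMA3 was at 6.01 ± 0.33 TPM and LAMB3 at 34.3 ± 1.7 TPM. Matrix glycoproteins were detected in 29 of 50 cases (58.0%), and beside TGFBI, THBS1 and FN1 the highest were IGFBP7 at 397 ± 6.8 TPM, FBLN1 at 232 ± 3.9 TPM, FSTL1 at 206 ± 5.4 TPM and the osteopontin gene SPP1 at 205 ± 0.44 TPM. Elastin (ELN), vitronectin (VTN) and SMOC2 had no read. Among the proteoglycans SRGN (serglycin) was at 899 ± 48 TPM, the glypican GPC1 at 517 ± 9.6 TPM and lumican LUM at 512 ± 22 TPM, while biglycan BGN was at 0.779 TPM and ACAN and ASPN had no read.

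Of 55 matrix proteases and their inhibitors 30 were detected (54.5%), and the inhibitors were among the highest. MMP2 (gelatinase A) was at 818 and 809 TPM and its membrane activator MMP14 at 259 and 256 TPM, with TIMP2, which takes part in that activation, at 265 and 276 TPM. MMP7, MMP28 and MMP15 followed at 30.3 ± 1.7 TPM, 16.5 ± 0.22 TPM and 12.9 ± 1.2 TPM. The collagenases MMP1 and MMP13 and the other gelatinase MMP9, by contrast, were at 0.0411, 0.0117 and 0.0964 TPM. TIMP1 was at 320.1 ± 24 TPM, TIMP4 at 245 ± 4.5 TPM and TIMP3 at 21.98 ± 1.0 TPM. PLAU, which encodes urokinase, was at 1.28 and 1.24 TPM and the urokinase receptor PLAUR at 19.9 and 18.8 TPM. The cathepsins CTSL and CTSB were at 250.3 ± 12 TPM and 219.7 ± 4.4 TPM.

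Integrins, the receptors for this matrix, were detected in 17 of 26 cases (65.4%). The fibronectin receptor chains ITGA5 and ITGB1 were at 410.1 ± 2.0 TPM and 316 ± 11 TPM, and ITGA3, which pairs with ITGB1 on laminin, at 364 ± 4.1 TPM. ITGAV was at 76.8 ± 2.2 TPM, and of its partners ITGB5 was at 149 ± 2.5 TPM and ITGB3 at 4.298 ± 0.10 TPM, whereas ITGB6, which is typical of oral carcinoma and wound epithelium, was at 0.0411 TPM. The leukocyte integrins ITGAL, ITGAM and ITGB2 were at 0.0302, 0.0256 and 0.295 TPM.

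Receptor tyrosine kinases were detected in 32 of 58 cases (55.2%), near the background of 57.9%, and 15 had a mean of 10 TPM or more. AXL, of the TAM group, was the highest at 199 and 196 TPM. The next were ROS1 at 55.8 and 59.7 TPM, MET at 54.8 and 57.7 TPM, EGFR at 50.5 and 50.8 TPM and the collagen receptor DDR1 at 49.3 and 49.4 TPM. These 4 were below AXL in both libraries. The values of ROS1 and MET overlapped between the libraries and are not ordered, whereas EGFR and DDR1 were below both of them and close to each other. ERBB2 was at 17.6 ± 0.20 TPM, while ERBB3 and ERBB4 were at 0.228 and 0.0336 TPM. FGFR1 was at 24.9 ± 0.18 TPM, whereas FGFR2, of which epithelia make a specific form, was at 0.01301 TPM and FGFR3 at 0.661 TPM. EPHA2 and EPHB4 were at 31.05 ± 0.51 TPM and 24.98 ± 0.70 TPM, and EPHA7, INSRR and TIE1 had no read.

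**Figure D4:**
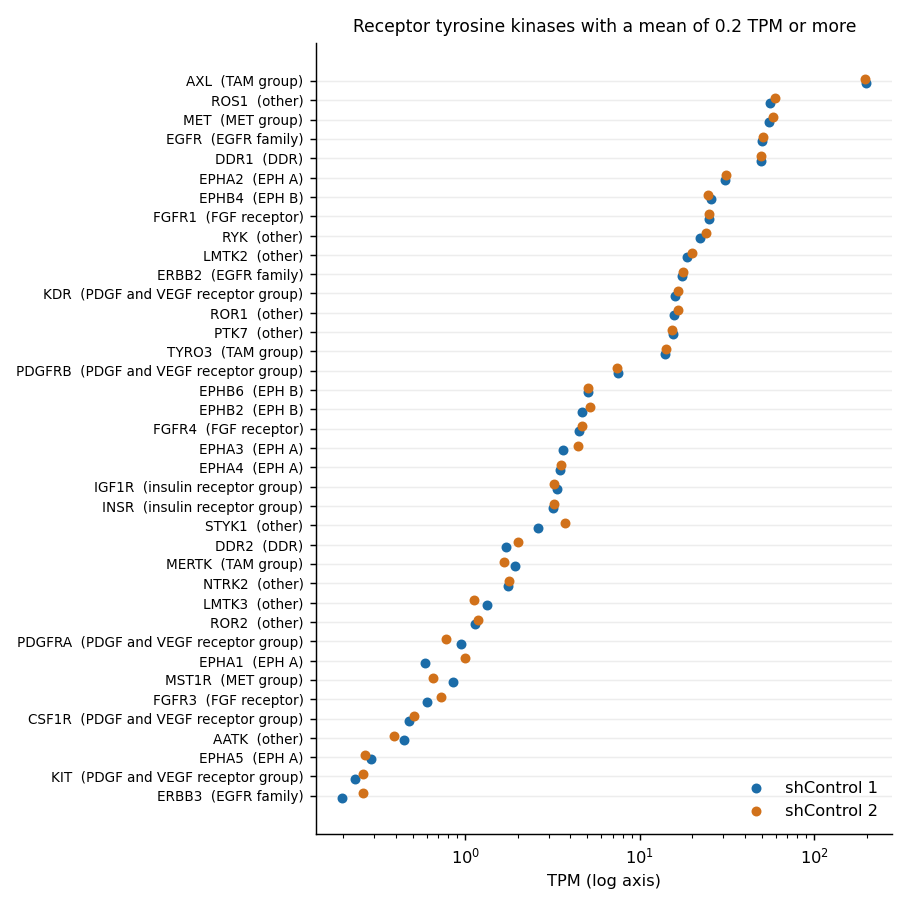
Level (TPM, log axis) of the receptor tyrosine kinases with a mean of 0.2 TPM or more in shControl 1 (blue) and shControl 2 (orange), with the group of each receptor in parentheses. AXL lies apart at the top near 197 TPM, and ROS1, MET, EGFR and DDR1 follow with means between 49.4 and 57.7 TPM.

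Ligands of several of these receptors were present in the same libraries, which do not tell whether single cells held both. The pairs below were chosen after the values had been seen. GAS6, the ligand of AXL, was at 259 and 276 TPM, and PROS1, another TAM ligand, at 134 and 132 TPM. HGF, the ligand of MET, was at 11.8 and 12.8 TPM. Of the ligands of EGFR, EPGN (epigen) was at 92.1 and 94.05 TPM, AREG at 32.2 and 30.1 TPM and EREG at 8.09 and 8.48 TPM, whereas TGFA and HBEGF were at 3.097 and 3.09 TPM and EGF at 0.177 TPM. VEGFA was at 44.3 and 45.5 TPM with its receptor KDR at 15.96 and 16.6 TPM. In other pairs the receptor was low, under 1 TPM in both libraries. CSF1 was at 119.5 and 117 TPM against 0.474 and 0.5097 TPM for CSF1R, KITLG at 50.9 and 54.01 TPM against 0.233 and 0.2599 TPM for KIT, and PDGFA at 64.1 and 64.4 TPM against 0.941 and 0.775 TPM for PDGFRA. The chemokine CXCL12 was at 18.96 and 16.8 TPM with its scavenger receptor ACKR3 at 87.8 and 87.5 TPM, while its signalling receptor CXCR4 was at 0.432 and 0.247 TPM. ACKR3 was the 1 detected member of 22 chemokine receptors.

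Developmental signalling genes were present in part. Of 42 genes of TGF-beta and BMP signalling 25 were detected (59.5%). The activin subunit INHBB was the highest ligand at 272 ± 0.44 TPM, TGFB1 was at 129.6 ± 2.9 TPM, and the activin antagonist FSTL3 at 138 ± 2.4 TPM. TGFBR2 was at 64.8 ± 0.10 TPM and TGFBR1 at 11.5 ± 0.051 TPM. Of 47 WNT genes 22 were detected (46.8%), with the noncanonical ligands WNT5B at 206 ± 12 TPM and WNT5A at 42.7 ± 1.6 TPM, the receptor FZD6 at 179 ± 2.3 TPM and the antagonist DKK3 at 136 ± 1.0 TPM, while DKK1 was at 0.0149 TPM. Of 18 Notch genes 12 were detected (66.7%), with NOTCH3 at 66.1 ± 3.3 TPM, NOTCH2 at 23.7 ± 0.034 TPM and NOTCH1, the receptor of squamous differentiation, at 5.21 ± 0.16 TPM. The Notch ligand JAG1 was at 24.04 ± 1.6 TPM. Of 10 Hedgehog genes 3 were detected, namely GLI3 at 16.01 ± 0.46 TPM, PTCH1 at 3.75 ± 0.046 TPM and GLI1 at 1.82 ± 0.14 TPM, and the transducer SMO was at 0.0807 TPM.

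Cytokine receptors were detected in 46 of 80 cases (57.5%), but cytokine and chemokine ligands in 15 of 71 (21.1%). IL1R2, the decoy receptor for interleukin-1, was the highest at 367 and 389 TPM, and the signalling receptor IL1R1 was at 173 and 172 TPM. TNFRSF12A, the TWEAK receptor, was at 269 ± 8.4 TPM, IL13RA1 at 168 ± 4.7 TPM, TNFRSF1A at 157 ± 1.9 TPM, OSMR at 101 ± 3.1 TPM and the shared subunit IL6ST at 74.1 ± 3.3 TPM. The ligands IL1A, IL1B, IL6 and TNF were at 0.814, 0.0571, 0.516 and 0.0394 TPM, and CXCL8 at 1.97 ± 0.14 TPM. After CXCL12 the highest ligands were CLCF1 at 11.2 ± 1.6 TPM, CCL2 at 7.85 ± 0.53 TPM and LIF at 6.58 ± 0.57 TPM. None of 9 listed interferons was detected and 7 had no read. IFNE came nearest, at 0.867 and 1.28 CPM, of which the value in shControl 1 is below the limit.

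Class I antigen presentation was present and class II was almost absent. B2M was at 697 ± 22 TPM, HLA-C at 163 ± 1.4 TPM and HLA-E at 142 ± 1.3 TPM. HLA-B was far lower, at 4.36 and 4.75 TPM. The class I genes are close copies and polymorphic, 32.7% of the exonic bases of HLA-B lie in an exon of another gene on the same strand, and reads that fit more than 1 gene were not counted, so the value of HLA-B is uncertain. Of the class II genes HLA-DMA was at 6.93 ± 0.79 TPM, while CIITA, the class II transactivator, was at 0.118 TPM and CD74 at 0.139 TPM. Among the ligands of immune checkpoints CD276 was at 84.5 ± 2.7 TPM, CD47 at 53.2 ± 2.4 TPM and NECTIN2 at 48.7 ± 0.0072 TPM, whereas CD274 (PD-L1) was at 1.33 ± 0.11 TPM and IDO1 at 0.127 TPM.

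Nuclear receptors were detected in 29 of 48 cases (60.4%). The orphan receptors ESRRA and NR2F6 were the highest at 56.3 ± 2.3 TPM and 54.6 ± 2.7 TPM, with the oxysterol receptor NR1H2 at 53.6 ± 0.49 TPM. The glucocorticoid receptor NR3C1 was at 34.3 ± 1.4 TPM, whereas the oestrogen receptors ESR1 and ESR2 were at 0.471 and 0.00886 TPM and PGR at 0.104 TPM. Retinoic acid receptors RARA and RARG were at 18.9 ± 1.1 TPM and 12.2 ± 0.46 TPM and the vitamin D receptor VDR at 3.81 ± 0.27 TPM. Of 48 listed G protein-coupled receptors 35 were detected (72.9%), led by the adhesion receptor ADGRE5 at 93.4 ± 0.036 TPM, the lysophosphatidic acid receptor LPAR1 at 59.8 ± 1.6 TPM and the sphingosine-1-phosphate receptor S1PR3 at 35.1 ± 0.49 TPM.

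Cell cycle genes were detected in 38 of 42 cases (90.5%). PCNA was at 416 ± 4.9 TPM, TOP2A at 244 ± 7.9 TPM and MKI67 at 104 ± 0.75 TPM. CCND1 was at 70.1 ± 0.34 TPM, CDK4 at 99.7 ± 0.69 TPM and CDK6 at 21.002 ± 0.80 TPM, and CCND2 was at 0.0165 TPM. The inhibitors CDKN2A and CDKN2B had no read in either library, which allows up to 0.0510 and 0.0614 TPM for CDKN2A. They lie side by side on 9p21 (CDKN2A at chr9:21967752-21995301 and CDKN2B at chr9:22002903-22009305, both on the minus strand), and their neighbour MTAP (chr9:21802636-21937651) was at 10.8 and 10.6 TPM. The antisense transcript CDKN2B-AS1 was at 0.0152 TPM. The inhibitors CDKN2C, CDKN1A and CDKN1B were at 84.3 ± 0.96 TPM, 64.4 ± 1.5 TPM and 15.7 ± 0.76 TPM, and RB1 at 36.1 ± 0.82 TPM. Among genes of growth arrest and cell death GADD45A was at 123 ± 2.1 TPM, BAX at 66.8 ± 0.51 TPM and the ubiquitin ligase MDM2 at 18.4 ± 0.14 TPM.

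Among genes often altered in head and neck cancer 40 of 44 were detected (90.9%). KEAP1 was at 93.3 ± 0.34 TPM, FAT1 at 55.6 ± 1.2 TPM and CASP8 at 17.7 ± 1.2 TPM. YAP1 was at 69.4 ± 2.9 TPM, MYC at 34.6 ± 0.099 TPM, HRAS at 34.9 ± 4.8 TPM and PIK3CA at 6.51 ± 0.058 TPM. Of 24 genes of 3q26 to q29, the arm that holds YEATS2, 21 were detected (87.5%), with EIF4G1 at 257 ± 1.8 TPM and TFRC at 142 ± 4.6 TPM, and the 3 that were not were TP63, MAP6D1 and TERC. YEATS2 was at 19.4 and 19.6 TPM and ranked 5264. On 11q13 CTTN was at 113 ± 1.5 TPM, FADD at 54.2 ± 0.66 TPM and PPFIA1 at 21.6 ± 0.54 TPM, whereas ANO1, which lies in the same interval, was at 0.00527 TPM and FGF3, FGF4 and FGF19 had no read. The counts say nothing of copy number.

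Genes of NRF2-dependent redox metabolism formed a group of high transcripts. Of 33 redox and xenobiotic genes 24 were detected (72.7%), and 16 had a mean of 100 TPM or more. Beside TXN and NQO1 the aldo-keto reductase AKR1C2 was at 1188 ± 1.0 TPM, TXNRD1 at 867 ± 13 TPM, the cystine transporter SLC7A11 at 243 ± 10.4 TPM and the glutamate-cysteine ligase subunits GCLM and GCLC at 242 ± 4.1 TPM and 155 ± 6.6 TPM. GPX2, another listed target, had no read. AKR1C1, AKR1C2 and AKR1C3 are close copies and the division of reads among them is uncertain. The dioxin-inducible enzyme CYP1B1 was at 109.7 ± 2.9 TPM, and CYP1A1 at 1.35 ± 0.36 TPM.

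For the machinery of histone crotonylation, which is the subject of the series, all 53 listed genes were detected against a background of 57.9% of protein-coding genes. Such wide detection is not particular to this list, as 77 of 78 mitochondrial ribosomal proteins and 46 of 48 proteasome subunits were detected too. The lowest reader was at 0.215 TPM. Of the readers MLLT1 (ENL) was at 83.1 ± 3.1 TPM, YEATS4 at 36.3 ± 0.97 TPM, YEATS2 at 19.5 ± 0.17 TPM and MLLT3 (AF9) at 3.41 ± 0.088 TPM. Of the writers EP300 was at 20.1 ± 0.35 TPM, CREBBP at 17.7 ± 0.14 TPM and KAT2A at 24.6 ± 0.33 TPM. Of the erasers HDAC1 was at 90.3 ± 0.73 TPM and HDAC3 at 43.96 ± 0.47 TPM. Crotonyl-CoA metabolism ranged from ECHS1, which hydrates crotonyl-CoA, at 207 ± 2.5 TPM to CDYL2 at 0.609 ± 0.12 TPM, with GCDH, the mitochondrial enzyme that makes crotonyl-CoA from glutaryl-CoA, at 12.2 ± 0.52 TPM. SP1 was at 34.6 ± 1.3 TPM and SP3 at 24.4 ± 1.2 TPM.

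Many enzymes and structural proteins exist as sets of related genes, and the leading member often held nearly all of the set's transcripts. In 49 such sets the leader held 90% or more of the summed TPM in 19 sets, from 50 to under 90% in 22 and less in 8. LDHA held 99.1 ± 0.3% of the lactate dehydrogenase transcripts, with LDHB at 23.8 and 15.1 TPM. PKM held 99.998% of pyruvate kinase and MYH9 99.9% of the myosin heavy chains listed, with MYH10 at 0.0174 TPM. Of the cyclooxygenases PTGS1 held 92.6% and PTGS2 was at 2.13 ± 0.12 TPM. Other sets were divided, such as the 14-3-3 proteins, where YWHAG led with 22.4 ± 0.2%, and the annexins, where ANXA5 led with 35.6%. Aldolase could not be judged, because ALDOA had only 145 and 96 counts and 42.8% of its exonic bases lie in an exon of another gene on the same strand, where reads are left out as ambiguous.

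**Figure D5:**
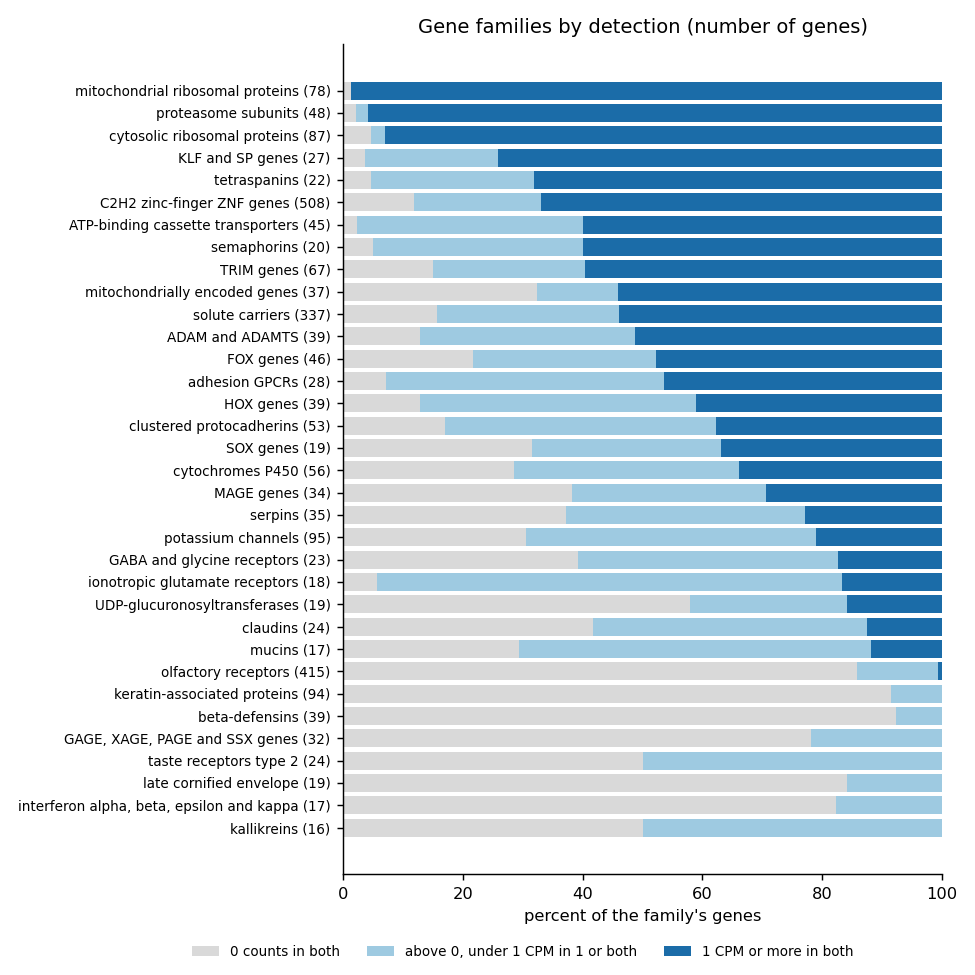
Share of the genes of each family of 15 or more that had 0 counts in both libraries (grey), reads but under 1 CPM in 1 or both (light blue) or 1 CPM or more in both (dark blue), with the number of genes in parentheses. Families of ribosomal proteins and the proteasome fill with dark blue, and keratin-associated proteins, beta-defensins and olfactory receptors with grey.

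Silent families lay at the other end. Of 415 olfactory receptor genes 3 were detected and 356 had no read, and the 3 were OR2W3 at 7.32 ± 1.4 TPM, OR7A5 at 2.57 ± 0.15 TPM and OR7C1 at 2.28 ± 0.14 TPM. None of 94 keratin-associated protein genes, 39 beta-defensins, 19 late cornified envelope genes, 16 kallikreins, 24 taste receptors of type 2 and 11 SPRR genes was detected, and the numbers without a read were 86, 36, 16, 8, 12 and 8. For the keratin-associated proteins the highest member, KRTAP2-3, was at 0.0755 TPM, which stands beside the 379 TPM of the hair keratin KRT81. Families in use throughout were the cytosolic ribosomal proteins (81 of 87 detected, 4.98 ± 0.31% of counts), the mitochondrial ribosomal proteins (77 of 78) and the proteasome subunits (46 of 48). The C2H2 zinc-finger ZNF genes stood in between, with 340 of 508 detected (66.9%).

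HOX genes, which record position along the body axis, were detected in 16 of 39 cases. The clusters differed, with 7 of 9 genes detected in HOXC, 6 of 11 in HOXA, 2 of 10 in HOXB and 1 of 9 in HOXD. HOXB7 was the highest at 22.9 ± 1.4 TPM, before HOXC13 at 14.8 ± 0.25 TPM and HOXA10 at 12.3 ± 1.1 TPM, and HOXD8 was the detected gene of its cluster at 7.26 ± 0.47 TPM. Beside HOXC13, a factor of hair keratin genes, the long noncoding RNA HOTAIR of the HOXC cluster was at 4.205 ± 0.13 TPM. MAGE genes were detected in 10 of 34 cases. The cancer-testis antigens MAGEA3 and MAGEA6 were at 243 ± 13 TPM and 233 ± 3.9 TPM, and as the pair is nearly identical its division is uncertain. Of 32 genes of the GAGE, XAGE, PAGE and SSX families none was detected, and SSX1 was the highest at 1.61 TPM. Clustered protocadherins were detected in 20 of 53 cases, led by PCDHGC3 at 42.6 ± 0.33 TPM.

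Long noncoding RNAs took 0.916% and 0.896% of the counts, and 1086 of 16689 were detected (6.51%). The 5 highest were an unnamed gene, ENSG00000269968, at 448 ± 65 TPM, SNHG19 at 182 ± 11 TPM, NORAD at 170.2 ± 0.61 TPM, SNHG6 at 136 ± 6.1 TPM and SNHG29 at 107 ± 2.0 TPM. The first of these lies within GAPDH on the opposite strand, and 100% of its exonic bases overlap an exon of another gene there. For SNHG6 the overlap with exons on either strand is 62.4%. Because the strand setting of the counting is not given, reads of these genes and of their partners cannot be told apart, and their ranks are uncertain. MALAT1 and NEAT1, which stay in the nucleus, were at 57.9 ± 2.0 TPM and 38.7 ± 2.0 TPM. MEG3 and UCA1 had no read, and H19 was at 0.749 TPM.

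The 2 libraries were alike for most genes. Over the 9224 genes with a mean of 10 CPM or more, the size of the log2 ratio of shControl 2 to shControl 1 had a median of 0.05, and 87.4% of the genes differed by less than 10%. The 21 genes that differed by 1.5-fold or more were all lower in shControl 2. The 5 lowest ratios were those of MTRNR2L12 at 32.8 and 12.6 CPM, MTCO3P12 at 17.2 and 6.83 CPM, PPIAP31 at 20.5 and 8.59 CPM, MT-ATP8 at 220.4 and 107 CPM and MTCO2P12 at 46.6 and 23.4 CPM, and 4 of these are mitochondrial genes or their nuclear copies. The 5 highest ratios were smaller, from 0.33 for CDK15 to 0.38 for OSBPL6 on the log2 scale, with HMGB1P6, MIR100HG and SLC27A1 between them. Short genes were lower in shControl 2, as the 128 genes with under 1000 exonic bases had a median log2 ratio of -0.14 and the 2742 genes of over 8000 bases one of 0.02. This touches the short members named above, such as S100A6 at 3866 and 2976 TPM, NDUFA1 at 3167 and 2581 TPM and RPS27 at 1949 and 1512 TPM, and its part in their spread was not tested.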

How the data were processed

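BICR10 cells transduced with a control hairpin were sequenced by the authors as poly(A) RNA with a stranded kit (paired-end reads), aligned to GRCh38 with STAR and counted per gene with HTSeq, as the labels and the study's methods state. The strand setting of the counting and the annotation release are not given in the sources used here. The authors deposited raw counts per Ensembl gene, and those of the 2 shControl libraries (47297970 and 39824898 on genes) were used. Tallies of reads without a gene (8.50% and 7.95% of all tallied reads), ambiguous reads (4.44% and 4.61%) and reads aligned to several places (3.53% and 3.25%) were left out of the totals. Because such reads are not counted, overlapping genes and near-identical copies are underestimated, and genes on opposite strands may not be told apart.

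CPM was computed over all counts on genes. TPM used the summed exonic length of GENCODE release 44, which held 60295 of the 60623 gene identifiers, and includes mitochondrial genes. A gene was detected at 1 CPM or more in both libraries, 0.1 TPM was added before log2, and ratios between the libraries used genes with a mean of 10 CPM or more. There is 1 group, so no test between groups was made and no p-value is given. With 2 libraries the SD is a rough measure. Counting error is smallest for the most deeply covered genes, and at 1 CPM a gene rests on about 40 to 47 reads. Genes named are the 25 highest protein-coding nuclear genes by mean TPM, the 5 highest long noncoding RNAs, members of the gene lists, the leading members of families and the 5 largest ratios between the libraries in each direction. Some genes that this rule covers are not reported here. The members and lists were chosen with earlier results of these data known. Scripts ran in Python 3.11.15 with pandas 2.3.3 and R 4.3.3, where edgeR 4.0.16 and DESeq2 1.42.0 gave alternative scaling factors, and they were tested on simulated data. microRNA and promoter sequences came from RefSeq (GRCh38.p14).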

Additional observations from a re-analysis of the deposited data

How the results depend on the processing

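Of 125 recomputed values over 18 results, 108 stayed within the set limit and 17 moved further. The limit was the SD between the libraries, or 1.5 times for counts of genes and the size of the log2 ratio. Only the epithelial minus mesenchymal median could change sign, and it did not. For this median and the shares, leaving out either library moves the mean by less than the SD whatever the data. Those runs are therefore no check. With 5 CPM in place of 1 CPM, the numbers detected fell to 9 epithelial markers, 7 keratins, 5 non-squamous lineage factors, 11 markers of other cell types, 6 HOX genes and 1 olfactory receptor, and with 0.5 CPM the olfactory receptors numbered 5. Genes with no count numbered 3724 among protein-coding genes alone. The 100 highest genes held 27.4% of the counts, 23.0% with all tallied reads in the total and 26.1% among protein-coding genes, and mitochondrial genes held 11.4%, 9.59% and 9.27%. The epithelial minus mesenchymal median of -7.44 was -8.00 with the longest transcript as length, -8.81 without division by length, -5.98 with a pseudocount of 1 and -4.80 over detected members alone, and -7.52 to -7.36 when either library was left out. The median size of the log2 ratio rose to 0.18 over all genes with a count in both, where low counts enter. The epithelial list therefore stayed lower in every alternative run, but the size of the gap depended on how genes near 0 were treated. TMM and DESeq2 factors, 1 TPM in place of 1 CPM and leaving out mitochondrial genes or either library kept every number detected within 1.5 times. No paired analysis was possible because only the shControl group was analysed and it has nothing to pair with.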

Other observations

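Of 337 solute carrier genes 182 were detected, led by the mitochondrial ADP/ATP carrier SLC25A5 at 1252 ± 24 TPM, the glutamine transporter SLC1A5 at 496 ± 11 TPM and the amino acid transporter SLC38A2 at 409 ± 21 TPM. The glucose transporter SLC2A1 held 67.8 ± 0.9% of the TPM summed over 13 listed glucose transporters, and the lactate exporter SLC16A3 held 77.5 ± 1.7% of that of 5 monocarboxylate transporters. Of 45 ATP-binding cassette transporters 27 were detected, with the drug exporters ABCC2 at 157 ± 5.2 TPM and ABCC1 at 98.2 ± 0.40 TPM. The carbonic anhydrases CA12 and CA9, which sit on the cell surface, were at 43.1 and 35.8 TPM and were the highest of 15.

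Among the regulators of apoptosis 28 of 33 were detected. MCL1 was at 113 ± 2.3 TPM, BCL2L1 at 86.3 ± 1.8 TPM and BIRC5 (survivin) at 107 ± 1.3 TPM, whereas BCL2 was at 1.46 ± 0.0053 TPM. The potassium channels were detected in 20 of 95 cases, led by KCNS3 at 17.4 ± 2.0 TPM. Of 56 cytochromes P450 19 were detected, and the second highest after CYP1B1 was CYP4F11 at 58.4 ± 0.63 TPM. The receptor subunit gene GABRA3, which belongs to a family of neuronal channels with 4 of 23 members detected, was at 19.04 and 20.6 TPM.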
